A study of Mus musculus with 8 samples.

Results

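The stellate cell and fibroblast genes described here are 31 genes of quiescent hepatic stellate cells, pericytes and fibroblasts, chosen by name from general knowledge and without collagens or contractile genes. The choice was made with earlier results of these data known. All 31 were among the 24411 genes of the count table. They were measured by RNA sequencing in 4 hepatocyte libraries from conditional Taf2 knockout mice, in which the deletion is hepatocyte-specific per the labels, and in 4 from wild-type (WT) mice. Taf2 encodes a subunit of TFIID, the general factor that binds core promoters and helps to place RNA polymerase II. Cells of both genotypes were harvested 2 days after plating. The labels give replicates 1 to 4 of each genotype, and do not give the Cre driver, the strain, age or sex of the mice, or whether each replicate was a separate animal, so p-values measure only the spread between these libraries.

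Hepatic stellate cells lie between hepatocytes and the sinusoidal endothelium, where they store retinyl esters and act as pericytes. When they are activated, in injury or on culture plastic, they lose their retinoid stores and turn into contractile cells that deposit fibrous matrix. Portal fibroblasts are a separate mesenchymal cell of the portal tract. A hepatocyte preparation can hold some of these cells, and their genes then appear at low levels beside those of hepatocytes. In bulk RNA, fewer cells of a type and less RNA per cell cannot be told apart.

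Libraries held 20287031 to 23933585 counts in the knockout and 18947060 to 22824561 in WT, and the 31 genes took 0.0265% to 0.0287% of the counts in knockout libraries and 0.0183% to 0.0190% in WT libraries. Taf2 itself stood at 13.9 ± 1.26 CPM (counts normalised to library size) in the knockout and at 44.04 ± 2.05 CPM in WT (SD, n = 4 each), with no overlap, so every library matched its label (exact two-sided permutation p = 0.0286, the smallest that 4 against 4 libraries allow). Hepatocyte markers were far more abundant than the 31 genes in both genotypes: 12 of them summed to between 66586 and 73522 CPM in knockout libraries and between 51877 and 56458 CPM in WT libraries. Fold changes are on the log2 scale, knockout over WT, with a standard error (SE) and a p-value from edgeR's quasi-likelihood test adjusted over all genes by the Benjamini-Hochberg method, and a gene is said to have risen or fallen where that p was under 0.05.

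Most of the stellate cell and fibroblast genes that could be measured were higher in the Taf2 knockout cultures. Of the 31 genes, 16 rose, 2 fell, 1 missed the threshold and 12 had too few counts to be tested, while over all 12122 genes tested 30.2% rose and 31.2% fell. Of the 19 members tested, 14 had a mean under 5 CPM, and 12 of those rose. Among all 2668 tested genes in that range, 35.0% rose and 18.4% fell. The rises ran from 1.65-fold for the secreted glycoprotein gene Reln to 11.7-fold for the pericyte gene Rgs5. The genes that fell were Gas6, which encodes a ligand of TAM receptor kinases, and the fibulin gene Fbln2. In 16 of the 19 tested every knockout library lay above every WT library, as in 26.9% of all genes tested, and in 1, Gas6, every one lay below, as in 27.8%. Among the 12 not tested, Hand2 and Igfbp5 lay above and Thy1 below in the same way. The median log2 fold change of the 19 tested members was 2.18, that of all genes tested was -0.0035, and that of tested genes under 5 CPM was 0.155. A low-count filter bears on these numbers, because a gene could pass it through the libraries of 1 genotype alone. The knockout libraries alone sufficed for 9 of the 19, while 8 passed in every library of both genotypes, namely Dcn, Rgs5, Reln, Ecm1, Hgf, Bgn, Sparc and Gas6. For Fbln2, which fell, the WT libraries alone sufficed, with 4 WT and 2 knockout libraries over the cutoff. The 19 and their median are therefore a description of the genes that passed and not a measure over the 31.

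**Figure D1:**
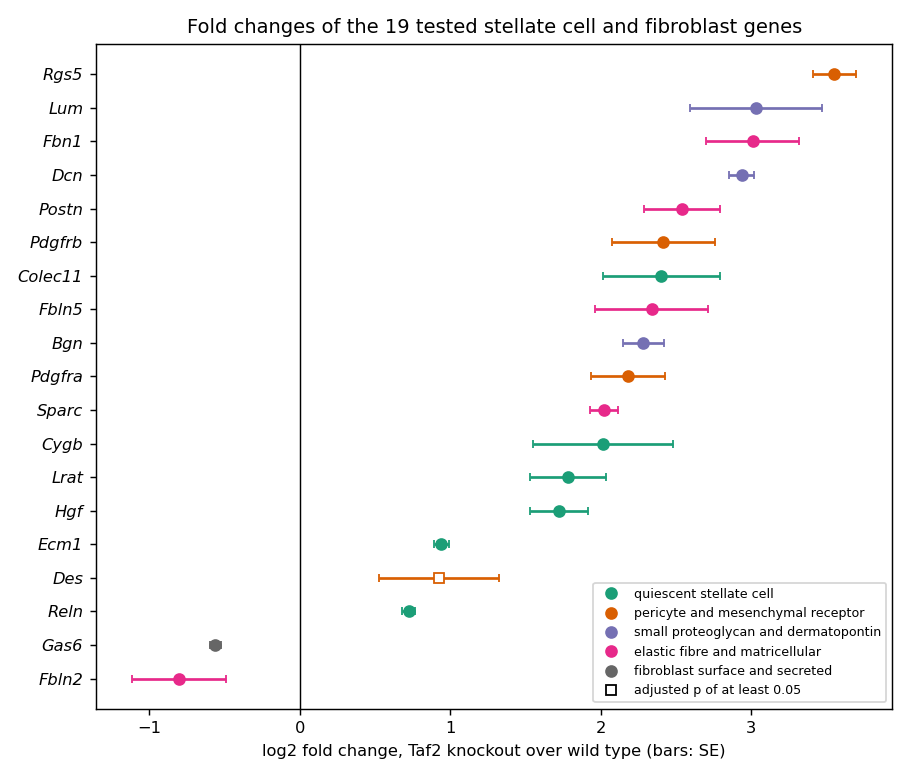
Log2 fold change (knockout over WT, horizontal axis) of the 19 tested stellate cell and fibroblast genes, ordered by size, with bars for the SE and colours for the gene's role. All but Gas6 and Fbln2 lie right of 0, Rgs5 lies farthest right at 3.55, and the open square marks Des, whose adjusted p was above 0.05.

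The gene with the most reads among those of the small leucine-rich proteoglycans, which bind collagen fibrils and growth factors, was Dcn (decorin; chromosome 10, 97479609 to 97518143, build mm10). Dcn was at 26.2, 27.0, 26.9 and 25.6 CPM in the knockout libraries and at 2.86, 4.08, 3.24 and 3.65 CPM in the WT libraries. The genotypes were far apart relative to the spread within each, with a log2 fold change of 2.94 (SE 0.085; edgeR adjusted p = 2.76e-16). Bgn (biglycan; chromosome X, 73483602 to 73495933) was at 6.64, 7.59, 6.96 and 5.78 CPM in the knockout libraries and at 1.30, 1.6, 1.41 and 1.22 CPM in the WT libraries. It too rose with no overlap between the genotypes (2.28, SE 0.14; edgeR adjusted p = 1.24e-11). Lum (lumican) followed at a far lower level, with 55 counts over the knockout libraries and 6 over the WT libraries (3.03, SE 0.44; edgeR adjusted p = 5.68e-06). Ogn (osteoglycin) and Dpt (dermatopontin, which binds decorin) were at or near 0, with 2 counts each over the knockout libraries and, over the WT libraries, 1 count of Ogn and 0 of Dpt, under the floor of 3 counts below which no fold is given.

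Among pericyte genes, Rgs5, a regulator of G-protein signalling (chromosome 1, 169655501 to 169695813), was at 8.0, 8.79, 8.65 and 7.77 CPM in the knockout libraries and at 0.477, 0.729, 0.835 and 0.796 CPM in the WT libraries. Its lowest knockout value was thus several times its highest WT value, and its log2 fold change of 3.55 (SE 0.15; edgeR adjusted p = 3.94e-14) was the largest of the 19. Pdgfra and Pdgfrb, the receptors through which platelet-derived growth factors drive mesenchymal cells, both rose. Pdgfra averaged 2.40 ± 0.532 CPM in the knockout and 0.531 ± 0.189 CPM in WT, and Pdgfrb averaged 1.248 ± 0.347 CPM in the knockout and 0.232 ± 0.116 CPM in WT (SD, n = 4 each). Neither receptor gene overlapped between the genotypes. Des, the intermediate filament gene desmin that marks rodent stellate cells, was at 0.593, 0.650, 0.692 and 0.426 CPM in the knockout libraries and at 0.347, 0.243, 0.0522 and 0.562 CPM in the WT libraries. These ranges overlap, and its log2 fold change of 0.93 (SE 0.40) missed the threshold at an edgeR adjusted p = 0.0514. Without WT replicate 4, the highest WT library, it passed at 0.0118 with a log2 fold change of 1.39, and without knockout replicate 4 it passed at 0.0376, and it passed in 4 of the 14 alternatives that tested it. Other pericyte genes were hardly detected: Notch3, a receptor of mural cells, had 6 counts over the knockout libraries and 3 over the WT libraries, and Cspg4, which encodes the NG2 proteoglycan, had 0 counts in all 8 libraries.

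**Figure D2:**
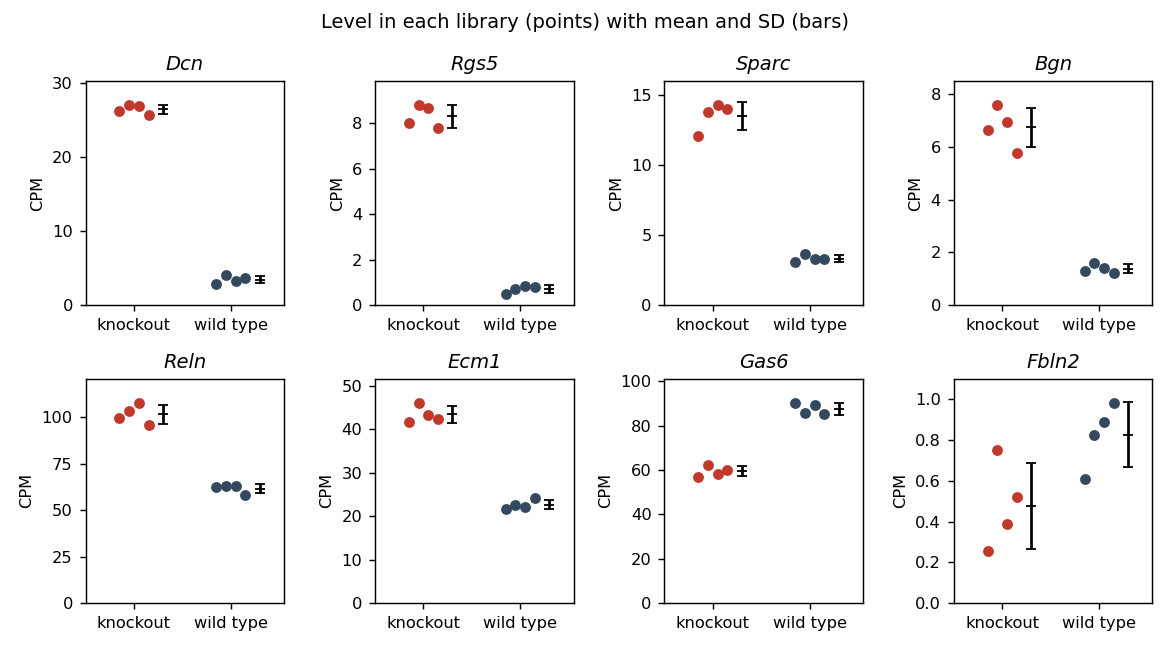
CPM of 8 members in each library (vertical axes from 0, a separate scale per gene), knockout left and WT right, with the mean and SD of 4 libraries beside the points. Knockout libraries stand above WT libraries for Dcn, Rgs5, Sparc, Bgn, Reln and Ecm1, below them for Gas6, and overlap with them for Fbln2.

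Genes listed for quiescent stellate cells split into abundant and scarce ones, and which cells of the cultures gave their reads was not tested. Reln (chromosome 5, 21884454 to 22344702), a ligand of the lipoprotein receptors Vldlr and Lrp8 that marks stellate cells in the liver, was at 99.7, 103, 108 and 95.8 CPM in the knockout libraries and at 62.6, 63.2, 62.8 and 58.0 CPM in the WT libraries. The genotypes were well apart, yet the log2 fold change was only 0.72 (SE 0.042; edgeR adjusted p = 7.78e-12). Ecm1 (chromosome 3, 95734147 to 95739569), a secreted matrix protein gene, was at 41.8, 46.2, 43.4 and 42.5 CPM in the knockout libraries and at 21.7, 22.6, 22.1 and 24.1 CPM in the WT libraries. Its rise was 1.92-fold, again without overlap (0.94 on the log2 scale, SE 0.051; edgeR adjusted p = 3.08e-12).

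The scarcer quiescent markers that were tested had larger fold changes. Lrat, Colec11 and Cygb passed the low-count filter through their knockout libraries, so a scarce marker that did not rise could have gone untested. Lrat, the lecithin retinol acyltransferase that makes the stored retinyl esters, was at 2.20, 3.30, 1.99 and 3.13 CPM in the knockout libraries and at 0.781, 0.389, 0.679 and 1.17 CPM in the WT libraries (1.78, SE 0.25; edgeR adjusted p = 3.90e-06). Hgf, the growth factor through which stellate cells act on the hepatocyte receptor Met, was at 3.17, 2.95, 2.16 and 2.61 CPM in the knockout libraries and at 0.911, 0.826, 0.626 and 0.890 CPM in the WT libraries (1.72, SE 0.19; edgeR adjusted p = 1.79e-07). For both genes every knockout library lay above every WT library. Colec11, a collectin of the lectin complement pathway, rose by 2.40 (SE 0.39), and Cygb, the globin that marks stellate cells, rose by 2.01 (SE 0.46), both from under 0.2 CPM in the WT mean. WT replicate 3 held the most Cygb of the WT libraries, and without it the log2 fold change of Cygb was 2.71. Without WT replicate 2, which held 0 counts of Cygb, it was 1.62.

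The transcription factors that define stellate cells had low counts. Hand2 had 16, 18, 11 and 14 counts in the knockout libraries and 2, 1, 1 and 4 counts in the WT libraries, so the genotypes did not overlap. It did not pass the filter. With no filter on low counts, where 24.3% of 16533 genes rose, its log2 fold change was 2.74 (SE 0.49; edgeR adjusted p = 4.06e-06). Tcf21 had 14 counts over the knockout libraries and 4 over the WT libraries, and Lhx2, which restrains stellate cell activation in mice, had 9 counts over the knockout libraries and 4 over the WT libraries. Neither passed in the fit with no filter, at edgeR adjusted p = 0.100 for Tcf21 and 0.377 for Lhx2. Ngfr, the p75 neurotrophin receptor of stellate cells, had 4 counts over the knockout libraries and 1 over the WT libraries.

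Elastic fibre and matricellular genes were led by Sparc (osteonectin; chromosome 11, 55394500 to 55423183), a collagen-binding protein gene. Sparc was at 12.1, 13.8, 14.3 and 14.0 CPM in the knockout libraries and at 3.08, 3.69, 3.29 and 3.28 CPM in the WT libraries. The gap between the genotypes was several times the spread within either (2.02, SE 0.093; edgeR adjusted p = 2.40e-13). Fbn1, which encodes the microfibril protein fibrillin-1, averaged 2.07 ± 0.364 CPM in the knockout and 0.258 ± 0.169 CPM in WT, Postn (periostin) 2.25 ± 0.349 CPM in the knockout and 0.377 ± 0.155 CPM in WT, and the elastin-binding fibulin gene Fbln5 0.875 ± 0.261 CPM in the knockout and 0.166 ± 0.0618 CPM in WT (SD, n = 4 each). With no overlap between genotypes, Fbn1 rose by 3.01 (SE 0.31), Postn by 2.54 (SE 0.25) and Fbln5 by 2.34 (SE 0.38) on the log2 scale.

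Fbln2, a fibulin of portal fibroblasts and basement membranes, went the other way from Fbln5. It was at 0.254, 0.749, 0.389 and 0.521 CPM in the knockout libraries and at 0.607, 0.826, 0.887 and 0.984 CPM in the WT libraries. The ranges overlap through knockout replicate 2 and WT replicate 1. Fbln2 passed the low-count filter through its WT libraries, where it was higher. The fall of Fbln2 (log2 fold change -0.81, SE 0.31; edgeR adjusted p = 0.0306) was lost in 7 of 15 alternatives, at up to adjusted p = 0.119 without knockout replicate 1. Thy1, the surface antigen of portal fibroblasts, also had more reads in WT. It had 0 counts in all knockout libraries and 2, 3, 1 and 4 counts in the WT libraries. Taking a floor of 3 counts over the 4 knockout libraries, Thy1 was at least 3.48-fold lower in the knockout, with counting error in WT not covered. With no filter on low counts it fell at an edgeR adjusted p = 0.00471, where 24.1% of genes fell. Mfap4 and Mgp, a microfibril gene and the matrix Gla protein gene that are typical of fibroblasts and vessel walls, had 0 counts in all 8 libraries.

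Gas6 (chromosome 8, 13465374 to 13494490), a vitamin K-dependent ligand of the receptors Axl, Mertk and Tyro3, was the most abundant member in WT. It was at 56.8, 62.1, 58.2 and 60.2 CPM in the knockout libraries and at 90.3, 85.8, 89.0 and 85.0 CPM in the WT libraries. Every knockout library lay below every WT library, and the mean fell to 0.677 times that of WT, a call that all 16 alternatives kept (log2 fold change -0.56, SE 0.037; edgeR adjusted p = 7.62e-11). Igfbp5, an insulin-like growth factor binding protein gene of fibroblasts, had 5, 6, 7 and 19 counts in the knockout libraries and 0 in each WT library. Against a floor of 3 counts over the 4 WT libraries, Igfbp5 was at least 11.8-fold higher in the knockout. Without knockout replicate 4, which held the most, it was at least 7.56-fold higher. Counting error in the knockout is not covered by these folds. With no filter on low counts Igfbp5 rose at an edgeR adjusted p = 2.90e-06.

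In sum over the 31 genes, CPM came to 268, 291, 284 and 271 in the knockout libraries and to 186.9, 186.8, 187.9 and 181.5 in the WT libraries. Reln, Ecm1 and Gas6 took 72.7% to 74.0% of that sum in the knockout and 91.9% to 93.5% in WT. Whether stellate cells or hepatocytes gave the reads of these genes was not tested. They are the 3 members with a WT mean of at least 5 CPM. Without Reln, Ecm1 and Gas6, the other 28 summed to 74.04 ± 4.06 CPM in the knockout and 13.9 ± 1.26 CPM in WT (SD, n = 4 each). The ratio was 5.32, against 1.499 with them. Reln and Ecm1 had the smallest rises and Gas6 fell, so a higher ratio without them was fixed in advance and is only a description. Of the 28, Dcn alone averaged 26.4 CPM in the knockout and 3.46 CPM in WT.

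**Figure D3:**
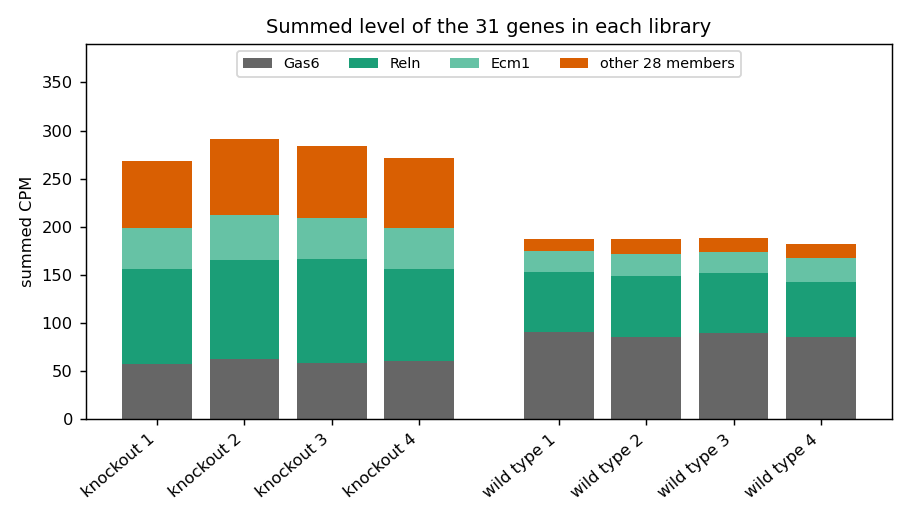
Summed CPM of the 31 genes in each of the 8 libraries (vertical axis from 0), split into Gas6, Reln, Ecm1 and the other 28 members. The 28 others reach 69.7 to 79.4 CPM in the knockout libraries and 12.2 to 15.2 CPM in the WT libraries, while the Gas6 segment is smaller in the knockout.

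To set levels of genes beside each other, CPM was divided by transcript length. Per kilobase, Gas6 was at 23.3 CPM per kb in the knockout and 34.4 in WT, and Ecm1 at 22.9 in the knockout and 11.9 in WT. Gas6 thus led in WT, while in the knockout the pair lay within the spread of their libraries. Dcn was at 15.04 CPM per kb in the knockout and 1.97 in WT, and Reln, with its far longer transcript, at 8.70 in the knockout and 5.27 in WT. Dcn thus ranked above Reln in the knockout and below it in WT. After Sparc, at 6.14 CPM per kb in the knockout and 1.51 in WT, and Bgn, at 2.79 in the knockout and 0.572 in WT, came Rgs5 at 2.03 in the knockout and 0.173 in WT. All other members were under 1 CPM per kb in both genotypes, and Lrat stood at 0.496 in the knockout and 0.141 in WT.

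**Figure D4:**
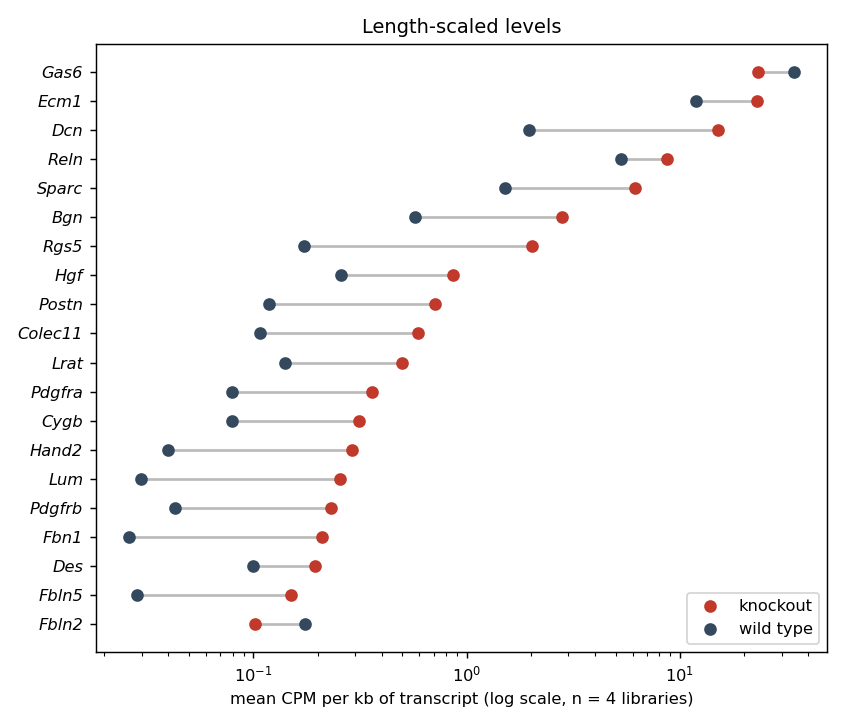
Mean CPM per kilobase of transcript (log scale, n = 4 libraries per genotype) of the 20 members with at least 20 counts in all and with counts in both genotypes, ordered by the knockout level. Points of the 2 genotypes lie close together for Gas6, Ecm1 and Reln and far apart for Dcn, Rgs5, Lum and Fbn1.

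Taf2 being part of a factor that binds core promoters, the promoter windows of the 31 genes were read from RefSeq (build GRCm38.p6, 250 bases before to 50 after the start), which held 28 windows for 24 of the 31. The windows of Rgs5, Bgn and Ecm1, which rose, and of Gas6, which fell, are given 5′ to 3′ on the gene's strand. Capitals mark, on either strand, TATAAA (bound by the TBP subunit of TFIID), CCAAT (bound by NF-Y) and GGGCGG (the GC box, bound by Sp1).
Rgs5, chr1:169655251-169655550, + strand: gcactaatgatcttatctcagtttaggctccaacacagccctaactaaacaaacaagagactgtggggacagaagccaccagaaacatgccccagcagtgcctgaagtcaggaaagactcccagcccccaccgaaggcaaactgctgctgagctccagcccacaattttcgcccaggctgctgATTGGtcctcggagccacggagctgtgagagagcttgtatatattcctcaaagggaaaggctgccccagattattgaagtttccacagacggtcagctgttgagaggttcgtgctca
Bgn, chrX:73483351-73483650, + strand: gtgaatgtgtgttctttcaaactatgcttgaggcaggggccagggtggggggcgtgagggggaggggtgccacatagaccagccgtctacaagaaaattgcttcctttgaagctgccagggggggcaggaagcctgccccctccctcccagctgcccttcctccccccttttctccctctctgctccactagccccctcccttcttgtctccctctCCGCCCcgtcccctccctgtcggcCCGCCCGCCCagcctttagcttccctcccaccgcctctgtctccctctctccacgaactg
Ecm1, chr3:95739520-95739819, - strand: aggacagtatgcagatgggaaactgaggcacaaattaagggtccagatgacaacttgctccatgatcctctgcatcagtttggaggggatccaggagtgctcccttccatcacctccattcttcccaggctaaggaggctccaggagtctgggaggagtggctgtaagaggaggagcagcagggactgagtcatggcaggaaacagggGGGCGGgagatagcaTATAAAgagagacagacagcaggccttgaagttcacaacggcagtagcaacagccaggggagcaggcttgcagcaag
Gas6, chr8:13494486-13494785, - strand: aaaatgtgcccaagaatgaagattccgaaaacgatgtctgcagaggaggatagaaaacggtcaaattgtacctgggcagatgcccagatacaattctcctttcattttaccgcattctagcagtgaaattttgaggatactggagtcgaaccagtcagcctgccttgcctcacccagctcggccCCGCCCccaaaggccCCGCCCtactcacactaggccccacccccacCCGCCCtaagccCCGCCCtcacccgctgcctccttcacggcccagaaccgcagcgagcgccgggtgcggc

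TATAAA occurred in 14.3% of the members' windows and in 13.6% of all 32851 windows, CCAAT in 21.4% of the members' windows and 37.4% of all, and GGGCGG in 50% of the members' windows and 35.7% of all. The Ecm1 window holds TATAAA 27 bases before the start and a GC box 42 bases before it, the Rgs5 window CCAAT on the reverse strand 67 bases before it, and the Bgn and Gas6 windows only GC boxes, 3 in Bgn, of which 2 overlap, and 4 in Gas6. Only these exact strings were searched, so a window without a mark, such as that of Rgs5 for TATAAA, can still hold a variant. A match is only a match of letters, and occupancy was not measured.

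Partner genes of the member proteins, ligands and receptors from a list compiled with earlier results of these data known, were divided. Of 17, 14 were tested, of which 6 rose, 4 fell and 4 missed the threshold (median log2 fold change 0.26). Of the Gas6 receptors, Axl rose (7.25 CPM in the knockout and 1.08 CPM in WT; 2.75, SE 0.15) while Mertk and Tyro3 missed the threshold at 0.21 (SE 0.094) and 0.21 (SE 0.16). Axl and Mertk are also macrophage genes. Of the Reln receptors, Vldlr rose by 1.602 (SE 0.058) and Lrp8 fell by 0.59 (SE 0.066) on the log2 scale. Met, the Hgf receptor, fell to 113 CPM in the knockout, against 153 CPM in WT. Pdgfa rose by 0.31 (SE 0.054) and Pdgfb, a ligand of PDGF receptors made by endothelial cells among others, had a log2 fold change of -0.95 (SE 0.20). The Notch ligand gene Dll4, typical of endothelium, rose by 2.37 (SE 0.17).

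Genes that activated stellate cells switch on went in opposite directions by class. All 8 fibrillar and type VI collagen genes examined rose, with a median log2 fold change of 2.58, and they summed to 22.2 ± 0.451 CPM in the knockout and 2.58 ± 0.326 CPM in WT (SD, n = 4 each). Col6a1 and Col6a2 rose most, by 4.03 (SE 0.17) and 4.79 (SE 0.25), and Col1a1, the chief collagen of scar matrix, rose least, by 1.15 (SE 0.33). Of 10 contractile genes 6 were tested and all 6 fell (median -1.46), and the contractile list summed to 177 ± 5.59 CPM in the knockout and 518 ± 17.0 CPM in WT. Among them were Tagln (-2.34, SE 0.049), Tpm2 (-1.598, SE 0.042) and Myl9 (-1.96, SE 0.086). Hepatocytes in culture express several of these contractile genes as well.

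Markers of other cells that a hepatocyte preparation can hold moved in the same libraries, and their part in the result was not tested. Of 15 endothelial markers 12 rose and 0 fell, 1 missed the threshold and 2 were not tested, with sums of 158 to 166 CPM in knockout libraries and 59.2 to 67.0 CPM in WT libraries. Of 15 macrophage markers 13 rose, 0 fell and 2 were not tested, with sums of 249 to 278 CPM in knockout libraries and 91.8 to 121 CPM in WT libraries. The ratios of these sums were 2.59 for endothelial and 2.54 for macrophage markers, and the median log2 fold changes were 1.602 for endothelial and 1.92 for macrophage markers. Cd68, the most abundant macrophage marker, was at 172 CPM in the knockout and 84.1 CPM in WT, and the other 14 summed to 92.9 CPM in the knockout and 20.4 CPM in WT, a ratio of 4.56. Without Cdh5, the most abundant endothelial marker, the endothelial ratio was 2.49. Whether the members' fold changes differ from those of these lists was not tested. Of 8 portal fibroblast markers 2 rose, 0 fell, 1 missed the threshold and 5 were not tested. Gdf10 rose by 2.22 (SE 0.22) and Col15a1 by 0.93 (SE 0.099), while Entpd2 was at 4.51 CPM in the knockout and 4.01 CPM in WT (0.17, SE 0.11; edgeR adjusted p = 0.211). Gli1, Eln and Pi16 had 1 count each over the knockout libraries, Clec3b had 0 counts over the knockout and 3 over the WT libraries, and Cd34 had 9 over the knockout and 10 over the WT libraries. Of 6 mesothelial markers 1 fell and 5 were not tested. The one that fell was Krt19, also a cholangiocyte marker, at 13.8 CPM in the knockout and 19.5 CPM in WT (-0.50, SE 0.076). Upk3b and Gpm6a had 0 counts in all libraries and Wt1 had 1 count over each genotype, whereas Msln had 3 counts over the knockout libraries and 33 over the WT libraries. Of 9 cholangiocyte markers 3 rose, 3 fell and 3 were not tested, with sums of 489 to 535 CPM in knockout libraries and 337 to 349 CPM in WT libraries. Of the 12 hepatocyte markers 7 rose, 3 fell and 2 missed the threshold, with a median of 0.22.

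**Figure D5:**
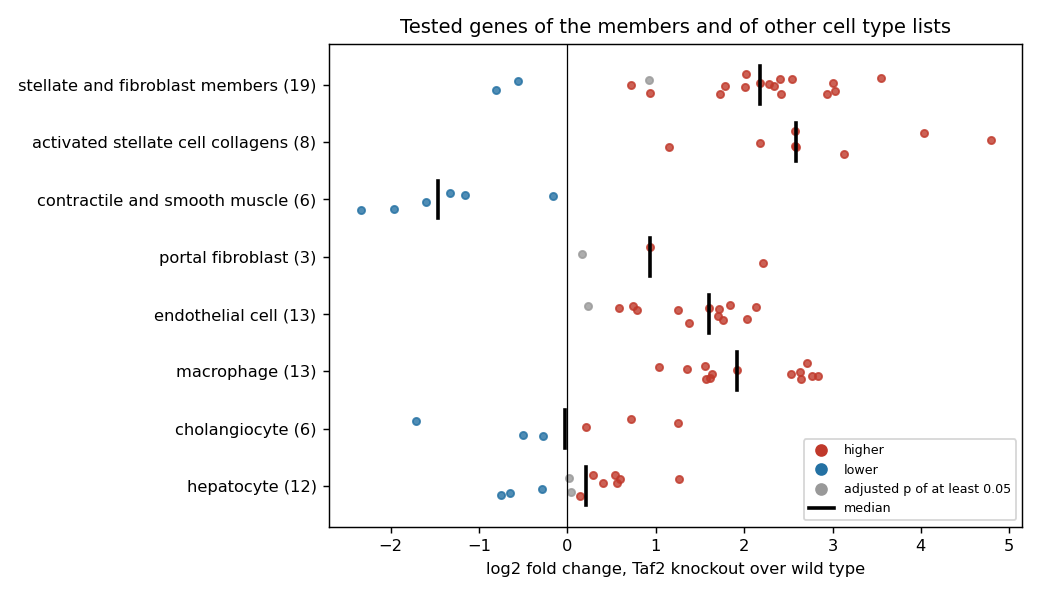
Log2 fold change (knockout over WT, horizontal axis) of each tested gene of the members and of 7 other lists (number tested in brackets), with red points for genes that rose, blue for genes that fell, grey for an adjusted p of at least 0.05, and a black bar for the median. Of the members, 14 lie from 1.72 to 3.55 and the contractile genes all lie left of 0.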

How the data were processed

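The authors deposited expected counts per gene for 8 hepatocyte libraries (TruSeq RNA libraries sequenced in 2 rounds, per the labels' protocols), made with RSEM on build mm10 per the submitters' processing notes and unscaled. The aligner and strand setting were not given in the sources used here, so reads of overlapping antisense genes may be counted together. Members' values were whole within 0.005. Another 8 columns have no matching sample and stayed out of every step. Whether they hold the other sequencing round of the same libraries is not known, so the low counts of scarce members are those of the 8 columns used.

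Expected counts were rounded, filtered with filterByExpr (minimum count 10, minimum total 15), scaled by TMM and tested with edgeR 4.0.16's quasi-likelihood test in R 4.3.3, knockout against WT with no other term. The SE was taken as |log2 fold change| over the root of F. Alternatives were RLE or upper-quartile scaling, other filters, DESeq2 1.42.0, limma-voom (limma 3.58.1), thinning, a replicate block and leaving out each library. Tested on simulated data (200 of 12016 genes changed), the fit recovered 64% of 1.2-fold, 92% of 1.4-fold and 100% of 2-fold changes and made 15 false calls. The changed genes were drawn at random from all in the fit. Of the 12122 genes tested, 2668 averaged under 5 CPM, as did 14 of the 19 members tested. Recovery among such scarce genes was not measured apart. Replicate libraries were distinct (chi-square per degree of freedom 3.18 to 8.64). Floors cover counting error only, and only that of the genotype with 0 counts.

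Coordinates and transcript lengths come from GENCODE M21 on the same build, matched through the table's RefSeq transcripts. The members and lists were chosen with earlier results of these data known. Values per library are given for called members with a mean of at least 5 CPM in either genotype and for members that fell. Those of Lrat, Hgf, Des and untested members, and genes of other lists beyond the 3 with the smallest adjusted p, were added after their values were seen.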

Additional observations from a re-analysis of the deposited data

Results flagged for a closer look

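Reln in WT replicate 4, at 58.0 CPM, stood apart from the other WT libraries, which lay between 62.6 and 63.2 CPM. The summed level of the 31 genes in the same library, 181.5 CPM, stood apart from the other WT libraries as well, and Reln is part of that sum. Both gaps exceeded Dixon's 95% critical value for 4 samples. Of 42 such sets of 4 values examined these were the 2 past it, and chance flags about 1 in 20. Without WT replicate 4 the log2 fold change of Reln was 0.69, and the WT mean of the sum was 187.2 CPM.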

How the results depend on the processing

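Over 16 alternative fits, 284 of 295 values for single members kept their direction and side of the threshold and 0 reversed. The 11 others belonged to Des and Fbln2. The count of members that fell was 1 in place of 2 with the stricter filter, with DESeq2 and with thinned libraries, and 1 to 2 when a library was left out. The call lost in each was that of Fbln2, which the stricter filter removed. With no filter on low counts 3 members fell, Thy1 being the one added. The count that rose ran from 11, with the stricter filter, which tested fewer genes, to 18. With no filter on low counts 28 members entered and the median log2 fold change was 2.008, against 2.18, because scarce members were added. The replicate numbers do not pair the libraries (correlation of deviations -0.069 to 0.011, with 0 of 8 libraries closest to their own number), and with the replicate block 16 members rose and 2 fell. Depth limits Ngfr, Lhx2, Tcf21, Dpt, Notch3 and Ogn, whose differences were not detectable at these counts. The fold of Igfbp5 without knockout replicate 4 was added after seeing the data.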

Other observations

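Genes of retinoid handling, which in stellate cells works with Lrat, were divided. Of 7 such genes 2 rose, 2 fell, 1 missed the threshold and 2 were not tested. Rdh10, a retinol dehydrogenase gene, rose to 19.05 CPM in the knockout, against 10.5 CPM in WT, while Aldh1a1, a retinal dehydrogenase gene that hepatocytes express, fell to 359 CPM in the knockout, against 950.2 CPM in WT, with part of its reads shared with other genes in 8 libraries. Rbp4, the plasma retinol carrier gene made by hepatocytes, rose by 0.48 (SE 0.036).

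Genes of lymphocytes and neutrophils were nearly absent. Of 10 in the table, 5 had 0 counts in all libraries and 1 was tested, the pan-leukocyte gene Ptprc, which rose (0.944 CPM in the knockout and 0.218 CPM in WT; 2.11, SE 0.36; edgeR adjusted p = 4.17e-05).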
